A study of Rattus norvegicus with 48 samples.

Results

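After 10 days of indole-3-carbinol, kidneys of LF rats were compared with kidneys of L rats given the same compound for as long. The comparison holds 8 of the 48 arrays of the series, the 4 labelled LF at day 10 and the 4 labelled L at day 10, and every probe set on them. Of 8797 probe sets, 28 differed at an adjusted p under 0.05 (0.318%), with LF higher at 22 (0.25%) and lower at 6 (0.0682%). The split depends on scaling. It was 42 higher and 23 lower after another quantile normalization, and 34 and 16 with array medians subtracted. LF kidneys carried more RNA of tubular injury genes, led by Havcr1 (kidney injury molecule), Lcn2, Clu and Timp1. Slfn4, Slfn9 and Mx2, which belong to interferon-induced families, were also higher. Of the genes just named, only Slfn9 kept its call when the spread was estimated from the 8 arrays alone. The carboxylesterase gene Ces1e was lower. A smaller set, with Ace, Igfbp4, Krt19, Slc7a12, Grik2 and Rtcb, differed in the same direction between the strains without the compound.

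All animals were male, labelled as 12 weeks old, and received indole-3-carbinol by gavage at 100 mg per kg body weight each day for 10 days. The same 2 strains after 7 days, and after vegetable oil alone (called day 0 or carrier kidneys), serve as the other time points, again with 4 arrays each. The series names its strains F, L, FL and LF. No allele, transgene or breeding scheme behind these letters is given in the labels, and none is assumed here. The protocol had 8 rats per group, and each array is called a biological replicate, without a statement on whether it holds 1 rat or a pool.

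Indole-3-carbinol is a compound of cruciferous vegetables whose acid products bind the aryl hydrocarbon receptor, a transcription factor that switches on Cyp1a1. When tubule cells of the kidney are damaged, the surviving cells lose parts of their transport machinery and start to make proteins that healthy tubules hardly contain, among them Havcr1 at the cell surface and Lcn2, which is secreted. Interferons act through a separate route, in which STAT and IRF factors bind short GAAA repeats before genes of antiviral defence such as Mx1 and Oas1a.

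Signals are on a log2 scale, so a difference of 1 is a doubling of the array signal. Differences are LF minus L, given with their standard error from a limma fit over all 48 arrays, and p-values are two-sided and adjusted by the method of Benjamini and Hochberg over all probe sets. Values in brackets of 4 are the replicates 1 to 4 in that order. Arrays of the same number are also set side by side, as a description, since the labels do not say that they were paired. Slc34a1 and Lrp2, proximal tubule genes picked after the values were seen, were high in both groups. Mean signals were 12.0 in LF and 12.04 in L for Slc34a1, and 11.93 and 11.9 for Lrp2. They do not stand for their list, in which 21 of 26 measured genes lay below 0 and 5 above. The 8 arrays had medians of 5.87 to 6.04 and SDs over probe sets of 2.43 to 2.52, and exact permutation tests between the strains gave p = 0.943 and 0.686 (two-sided, n = 4 per group). Correlations were 0.988 to 0.9923 between LF arrays, 0.9889 to 0.9916 between L arrays and 0.9867 to 0.9921 across the strains.

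The interferon genes are shown with the start of their sequence, because all 23 measured members of an interferon list were higher in LF on average and many share a short motif. Promoter sequences are those of RefSeq on GRCr8, from 250 bases before to 50 bases after the gene start. Of 3 motifs searched on both strands, the capitals mark the core of the interferon-stimulated response element, the letters GAAA repeated after any 2 bases. The others were the AP-1 motif TGANTCA and an NF-kB motif, GGGA and TTCC with any 2 bases between them. Oas1a and Ifi27 are shown as members with matches, and Slfn4 and Slfn9 as the genes of this group with the largest differences.
Oas1a, chr12:41330216-41330515, plus strand: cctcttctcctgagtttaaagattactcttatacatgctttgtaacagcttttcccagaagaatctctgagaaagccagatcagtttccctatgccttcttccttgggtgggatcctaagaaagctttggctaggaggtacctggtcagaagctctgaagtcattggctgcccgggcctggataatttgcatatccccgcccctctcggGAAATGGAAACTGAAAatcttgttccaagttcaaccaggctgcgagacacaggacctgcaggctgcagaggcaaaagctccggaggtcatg
Ifi27, chr6:128355062-128355361, plus strand: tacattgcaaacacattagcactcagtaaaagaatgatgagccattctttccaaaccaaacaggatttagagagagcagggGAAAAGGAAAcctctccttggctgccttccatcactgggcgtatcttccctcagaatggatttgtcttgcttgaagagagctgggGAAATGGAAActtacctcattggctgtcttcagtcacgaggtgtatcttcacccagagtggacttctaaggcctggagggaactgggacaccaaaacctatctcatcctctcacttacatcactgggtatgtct
Slfn4, chr10:68491970-68492269, plus strand: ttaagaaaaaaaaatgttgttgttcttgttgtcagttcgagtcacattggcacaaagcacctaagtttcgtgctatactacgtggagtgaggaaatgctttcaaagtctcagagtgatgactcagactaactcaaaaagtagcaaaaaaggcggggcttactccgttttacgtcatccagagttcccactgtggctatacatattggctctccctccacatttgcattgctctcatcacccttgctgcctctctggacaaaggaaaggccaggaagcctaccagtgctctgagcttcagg
Slfn9, chr10:68420013-68420312, minus strand: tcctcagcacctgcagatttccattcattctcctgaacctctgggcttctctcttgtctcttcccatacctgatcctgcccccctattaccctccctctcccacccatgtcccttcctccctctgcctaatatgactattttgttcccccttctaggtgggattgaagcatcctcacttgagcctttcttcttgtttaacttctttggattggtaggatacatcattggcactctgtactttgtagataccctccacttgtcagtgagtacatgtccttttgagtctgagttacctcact
Oas1a held overlapping matches that begin 41 and 35 bases before its start, and Ifi27 held separate ones at 169 and 84 bases. The core was not found in the windows of Slfn4 and Slfn9, which says nothing of sites elsewhere. Slfn4 held an AP-1 match that begins 133 bases before its start. Of 20 measured interferon list members with a RefSeq promoter entry, 13 held the core (65.0%). It was present in 1312 of 33469 promoters of the same length (3.92%), in 234 of 6232 measured genes with an entry (3.75%), in 1 of 21 such injury list members and in 0 of the 18 genes past the threshold that had an entry. The AP-1 motif was in 6 of the 20 interferon members (30.0%) and 7.33% of all promoters, and the NF-kB motif in 3 of the 20 and 1.3% of all promoters. The injury members held them in 3 and 1 of 21 (14.3% and 4.76%). No match of one motif overlapped a match of another in these genes. Clu, Mx2, Krt19, Rtcb, Itgb4, S100a10, Chrna2, Oas2, Ifit1 and Cyp1a1 had no matching entry.

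Injury genes made up the largest group. Of 26 measured genes of a list of tubular injury and repair, 7 were higher in LF at the threshold, 0 were lower and 25 lay above 0. Over all 7589 named genes, 0.25% were higher and 0.0791% lower. The list's median difference was 0.28 at day 10, against -0.01 over all genes, and its median between the carrier kidneys of the strains was -0.01. At an unadjusted p under 0.05, 12 members were higher and 0 lower, beside 2.74% and 2.44% of all genes. This list and the others were chosen with earlier results of these data known. Their shares beside those of all genes are therefore descriptions and not tests.

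Havcr1, a surface receptor by which injured proximal tubule cells take up dying neighbours, showed the widest difference. Its signals were (9.32, 8.48, 7.32, 8.47) in LF and (6.63, 4.56, 7.04, 4.09) in L. All LF arrays exceeded all L arrays, but L split into replicates 1 and 3, which were raised, and replicates 2 and 4, which were near the 3.74 to 4.32 of carrier L kidneys. The difference was 2.82 ± 0.54 (limma, adjusted p = 0.00388), or 7.05-fold, with a 95% interval of 1.72 to 3.91. Without L replicate 2 it was 2.48 (adjusted p = 0.0537), and without L replicate 4 it was 2.32 (adjusted p = 0.0695). With the spread estimated from the 8 arrays alone, Havcr1 did not pass (limma, adjusted p = 0.325).

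Lcn2, a secreted protein that binds iron-carrying siderophores, read (8.10, 7.86, 7.51, 7.88) in LF and (6.71, 5.89, 6.86, 5.62) in L. The same L replicates, 1 and 3, were the higher ones, and no L array reached the lowest LF array. The difference of 1.57 ± 0.21 (limma, adjusted p = 7.1e-06) kept its call without any single array. Clu, which encodes the extracellular chaperone clusterin, read (10.85, 10.58, 10.09, 10.51) in LF and (9.52, 8.89, 9.75, 8.72) in L, a difference of 1.29 ± 0.21 (limma, adjusted p = 0.000489). Timp1, an inhibitor of matrix metalloproteinases, read (7.46, 7.05, 6.98, 7.22) against (6.37, 5.70, 6.29, 5.68). Its difference was 1.17 ± 0.20 (limma, adjusted p = 0.000773). Both genes had LF and L arrays apart, and both calls held without any single array of the comparison. With the spread estimated from the 8 arrays alone, Lcn2, Clu and Timp1 did not pass (limma, adjusted p = 0.103, 0.136 and 0.063).

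Cd44, the hyaluronan receptor, read (6.96, 6.45, 6.30, 6.57) in LF and (5.67, 5.30, 6.27, 5.56) in L. The highest L array, replicate 3, came within 0.03 of the LF array of the same number, and the difference was 0.87 ± 0.18 (limma, adjusted p = 0.0143). It missed the threshold without LF replicate 1 (adjusted p = 0.152), L replicate 2 (0.141) or L replicate 4 (0.0746). Slc34a2, a sodium-phosphate cotransporter best known from lung and intestine, read (9.38, 9.10, 8.76, 9.02) against (8.16, 7.99, 8.37, 7.93). Its difference of 0.95 ± 0.22 (limma, adjusted p = 0.0278) missed the threshold in 6 of 8 single-array omissions, all but those of LF replicate 3 and L replicate 3, with adjusted p of 0.0662 to 0.17. The groups did not overlap.

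Further genes outside that list also rose. Gpnmb, a transmembrane glycoprotein of macrophages and stressed epithelium, read (6.94, 6.31, 5.77, 5.89) in LF and (5.44, 5.19, 5.41, 5.22) in L. LF replicates 1 and 2 were highest, and the difference of 0.91 ± 0.18 (limma, adjusted p = 0.00388) became 0.68 without LF replicate 1 (adjusted p = 0.0829). Adamts1, a secreted protease that cleaves proteoglycans, read (9.57, 9.15, 8.79, 9.20) against (8.10, 8.0, 8.31, 7.79). Its difference was 1.13 ± 0.23 (limma, adjusted p = 0.00981). Without LF replicate 1 or L replicate 4 the adjusted p was 0.0901 or 0.0709.

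Serpina3n, a serine protease inhibitor of the acute phase response, read (6.82, 6.02, 5.39, 6.46) in LF and (5.50, 4.49, 4.89, 3.86) in L. L replicate 1 lay above LF replicate 3, so the groups overlapped, and LF was higher in each of the 4 pairs of the same number. The difference was 1.49 ± 0.35 (limma, adjusted p = 0.0381), and it missed the threshold in 6 of 8 single-array omissions, all but those of LF replicate 3 and L replicate 1 (adjusted p of 0.0529 to 0.278). Of 18 measured acute phase genes this was the 1 that passed, beside 0.329% of all genes. At an unadjusted p under 0.05, 6 of the 18 were higher and 1 lower, beside 2.74% and 2.44% of all genes. Fgb and Fgg, which encode fibrinogen chains, showed differences of 0.63 and 0.49 at adjusted p of 0.55 and 0.74.

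Smaller rises were seen for S100a10, Itgb4 and Fbxo9. S100a10, the partner of annexin A2, read (11.04, 10.89, 10.76, 11.14) in LF and (10.75, 10.18, 10.29, 10.34) in L, a difference of 0.57 ± 0.13 (limma, adjusted p = 0.0408). Itgb4, an integrin subunit that binds laminin, read (6.18, 6.04, 5.75, 5.97) against (5.30, 5.46, 5.73, 5.66), a difference of 0.45 ± 0.10 (limma, adjusted p = 0.017). Both had groups that were apart, by 0.01 for S100a10 and 0.02 for Itgb4. Fbxo9, a substrate receptor of a ubiquitin ligase, was among the most even, with (8.39, 8.32, 8.47, 8.34) in LF and (7.74, 7.75, 7.90, 7.75) in L. The gap was 0.57 to 0.65 in each of the 4 pairs, and the fitted difference was 0.60 ± 0.12 (limma, adjusted p = 0.0111). S100a10 missed the threshold in 6 single-array omissions, all but those of LF replicate 3 and L replicate 1 (adjusted p of 0.0683 to 0.292). Itgb4 missed it without replicate 1 or 2 of either strain (0.0683 to 0.191), and Fbxo9 without L replicate 2 (0.0537) or 4 (0.0514).

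**Figure D1:**
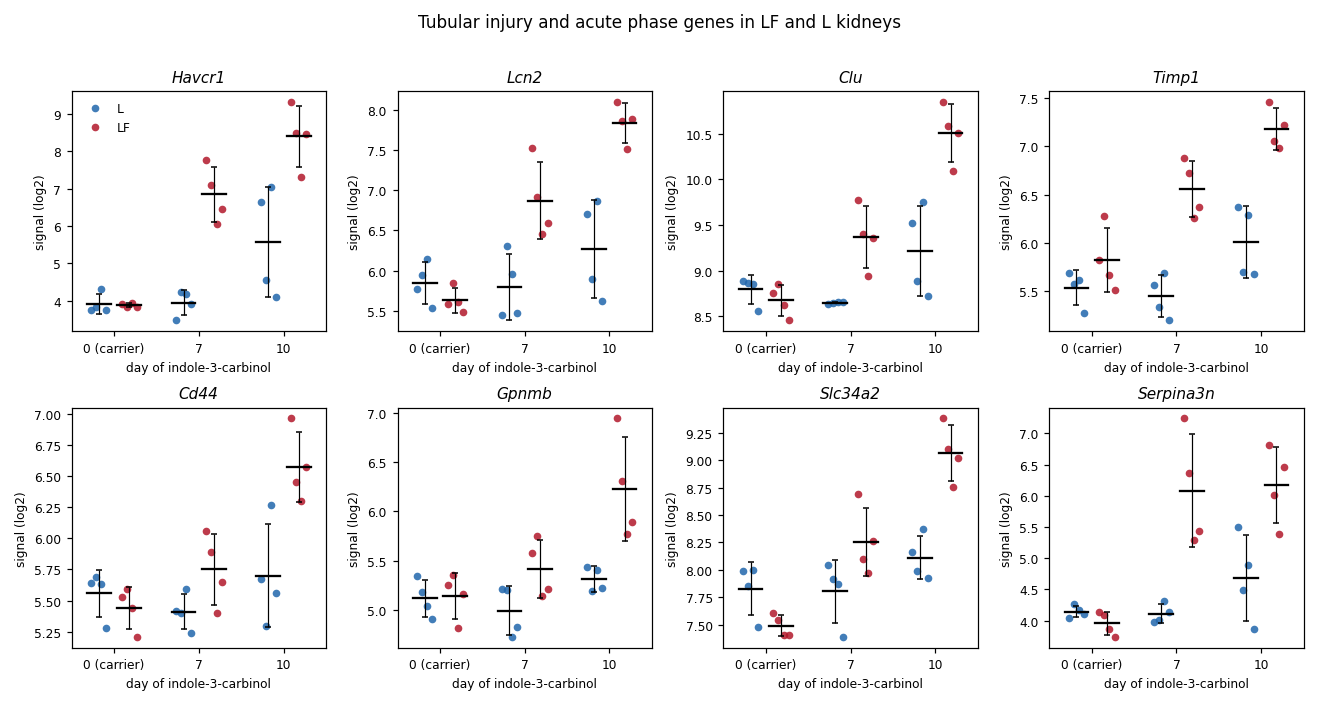
Log2 signal of 8 injury and acute phase genes (vertical axes) in L (blue) and LF (red) kidneys against day (horizontal axes, day 0 being carrier). Each point is 1 array, each bar the mean of 4 with its SD. At day 10 the 4 LF arrays of Havcr1 sit between 7.32 and 9.32, above the 4 L arrays, of which replicates 1 and 3 are the higher ones.

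Interferon-induced genes formed the other group. Of 23 measured members of the interferon response list, 2 passed the threshold, Slfn4 and Mx2, both higher in LF (0.25% of all genes were), and all 23 lay above 0. At an unadjusted p under 0.05, 18 were higher and 0 lower, beside 2.74% and 2.44% of all genes. This list too was chosen with earlier results of these data known, so these counts are descriptions. The list's median difference was 0.50 at day 10, 0.10 between carrier kidneys and -0.17 at day 7. The members' mean, centred over the 48 arrays, was (0.46, 0.34, 1.15, 0.79) in LF and (-0.35, -0.28, 0.52, 0.13) in L. Replicates 3 and 4 were thus the higher ones in both strains, and LF stood above L in each of the 4 pairs of the same number.

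Slfn9 and Slfn4 are Schlafen genes, a family induced by interferon in immune cells, and they are nearest neighbours among the measured genes of chromosome 10 on GRCr8. Slfn9 read (6.84, 6.47, 6.67, 6.31) in LF and (3.95, 3.96, 5.03, 4.53) in L. Every LF array lay above every L array by more than 1 log2 unit, and the difference was 2.21 ± 0.27 (limma, adjusted p = 1.37e-06), or 4.61-fold. Slfn4 read (7.01, 6.74, 8.31, 7.97) against (4.80, 5.12, 6.38, 5.55), a difference of 2.04 ± 0.33 (limma, adjusted p = 0.000303). Both calls held without any single array. With the spread estimated from the 8 arrays alone, Slfn9 kept its call and Slfn4 did not (limma, adjusted p = 0.189). Slfn9 is not on the interferon list. Whether probes of one Schlafen gene also bind RNA of another was not tested. In carrier kidneys the differences were 0.66 and 0.84 (adjusted p = 0.793 and 0.758). Of the measured genes next to the pair, Rffl on one side and Ap2b1 on the other showed 0.47 and 0.02 (adjusted p = 0.329 and 1.0).

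Mx2 and Mx1 encode dynamin-like GTPases that block viruses, and they also lie next to each other among measured genes. Mx2 read (6.95, 6.91, 8.25, 7.83) in LF and (5.19, 5.75, 7.03, 6.36) in L, so L replicate 3 overlapped LF replicates 1 and 2. The difference was 1.4 ± 0.31 (limma, adjusted p = 0.0232). It missed the threshold without LF replicate 3 (adjusted p = 0.188), LF replicate 4 (0.139), L replicate 1 (0.255) or L replicate 2 (0.14). Mx1 read (5.45, 5.42, 6.90, 6.34) against (3.69, 4.37, 5.86, 5.13). Its difference of 1.26 ± 0.31 lay just outside the threshold (limma, adjusted p = 0.0546).

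Oas1a, whose product makes oligoadenylates that activate an antiviral ribonuclease, read (6.38, 6.05, 7.86, 6.96) in LF and (4.10, 4.37, 6.85, 5.45) in L. LF was higher in each pair, by 1.01 to 2.28, while L replicate 3 exceeded LF replicates 1 and 2. The difference of 1.62 ± 0.54 did not pass (limma, adjusted p = 0.408). Ifi27, a small membrane protein of mitochondria, read (8.27, 8.27, 9.0, 8.84) against (7.54, 7.41, 8.33, 8.20). Its difference was 0.72 ± 0.20 (limma, adjusted p = 0.124).

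**Figure D2:**
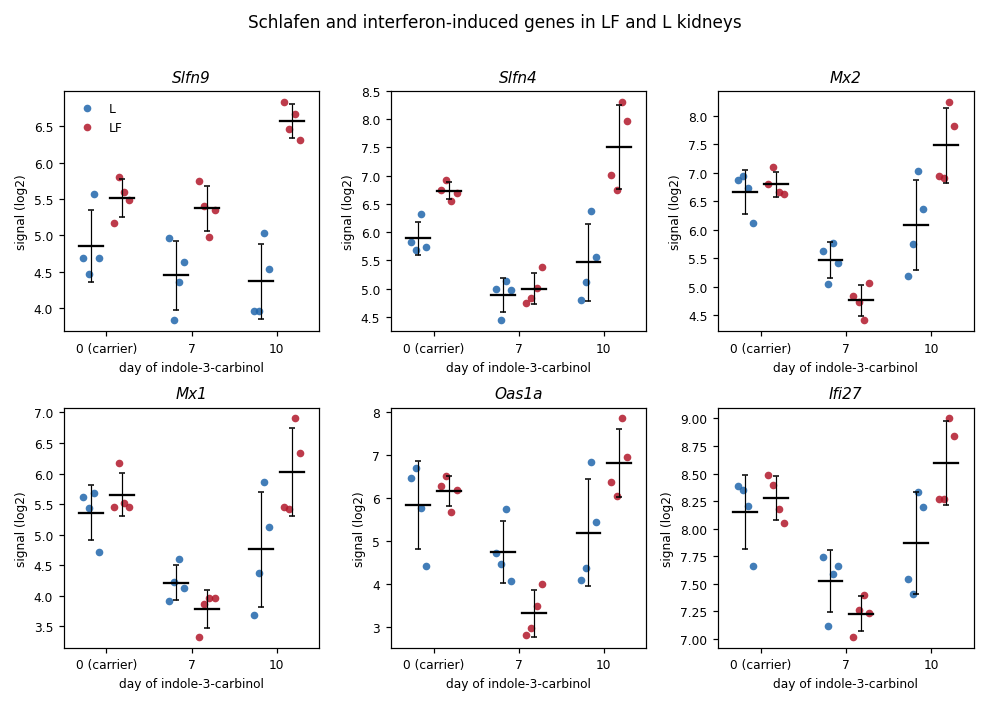
Log2 signal of 6 Schlafen and interferon-induced genes (vertical axes) in L (blue) and LF (red) kidneys against day (horizontal axes), with 1 point per array and bars for the mean and SD of 4. Slfn9 separates the strains at day 10, with LF at 6.31 to 6.84 and L at 3.95 to 5.03, while for Mx2 and Oas1a the highest L array lies among the LF arrays.

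Another set of genes differed at day 10 and also passed the threshold between carrier kidneys. Of the 28 probe sets called at day 10 and 17 called in carrier kidneys (0.193% of those tested), 6 were shared, which is 21.4% and 35.3% of each list. They belong to Ace, Igfbp4, Krt19, Slc7a12, Grik2 and Rtcb, and each differed in the same direction on both days. None of the 6 had a gap at day 10 that differed from the carrier gap by the test of that difference (limma, adjusted p of 1.0 for each).

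Ace, angiotensin-converting enzyme, read (6.98, 6.70, 6.77, 6.75) in LF and (5.87, 6.0, 5.71, 6.12) in L at day 10. The groups were well apart, and the difference was 0.88 ± 0.16 (limma, adjusted p = 0.00181) beside 1.15 ± 0.16 in carrier kidneys (adjusted p = 3.36e-05). The day 10 gap minus the carrier gap was -0.28, with a 95% interval of -0.73 to 0.17. The 6 measured genes nearest to Ace ranged from -0.15 to 0.05. Of 21 measured genes of angiotensin, kallikrein and vasoactive signalling, Ace was the 1 that passed, beside 0.329% of all genes. Agt, the angiotensin precursor, showed -0.16 ± 0.14 (adjusted p = 1.0) and Agtr1a, an angiotensin receptor, -0.47 ± 0.21 (limma, adjusted p = 0.864).

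Igfbp4, a binding protein that holds insulin-like growth factors, read (8.84, 8.97, 8.97, 9.11) in LF and (8.45, 8.16, 8.37, 7.99) in L. The strains were apart by 0.73 ± 0.12 (limma, adjusted p = 0.000266), beside 0.82 in carrier kidneys, and its 6 nearest measured genes ranged from -0.23 to 0.08. Krt19, a keratin of simple and ductal epithelium that is on the injury list, read (8.14, 7.54, 8.07, 7.80) against (6.73, 6.41, 6.93, 6.57). Its difference was 1.23 ± 0.28 (limma, adjusted p = 0.0275), smaller than the 1.43 seen in carrier kidneys (adjusted p = 0.00454), and the gap between those days was within its error (-0.20 ± 0.39). The day 10 call was lost in 6 of 8 single-array omissions, all but those of LF replicate 2 and L replicate 3 (adjusted p of 0.0596 to 0.152).

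Slc7a12, an amino acid transporter gene, had a pair of probe sets. Probe set 7206144 read (10.91, 9.95, 10.41, 9.83) in LF and (7.97, 8.28, 8.64, 8.05) in L, a difference of 2.04 ± 0.24 (limma, adjusted p = 1.37e-06) beside 1.41 in carrier kidneys (adjusted p = 0.00104). Probe set 7206136 read (10.88, 9.97, 10.82, 10.37) against (9.19, 9.66, 9.70, 9.53), a difference of 0.99 ± 0.18 (limma, adjusted p = 0.00198) beside 0.36 in carrier kidneys (adjusted p = 0.997). Both showed LF above L in every array, with differences of unequal size.

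Grik2, a subunit of kainate-type glutamate receptors, was lower in LF, with (3.81, 3.68, 3.52, 3.48) against (4.70, 4.64, 5.71, 4.75). The difference of -1.33 ± 0.20 (limma, adjusted p = 0.000176) stood beside -1.07 in carrier kidneys and -1.41 at day 7. Rtcb, the RNA ligase of tRNA splicing, read (6.94, 7.11, 6.66, 7.11) against (8.10, 8.57, 8.28, 8.01), a difference of -1.28 ± 0.22 (limma, adjusted p = 0.000879) beside -1.09 in carrier kidneys. For both genes all LF arrays lay below all L arrays. Csad, the decarboxylase of taurine synthesis, read (8.75, 8.80, 8.95, 8.96) against (9.32, 9.41, 9.58, 9.54). Its difference of -0.60 ± 0.13 (limma, adjusted p = 0.0145) compared with -0.44 in carrier kidneys, which missed the threshold there (0.231). The Csad call at day 10 was lost without LF replicate 1 (0.0901), LF replicate 2 (0.0605), L replicate 3 (0.0617) or L replicate 4 (0.0738).

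In the other strains of the series these genes took different sides. Mean Ace at day 10 was 6.99 ± 0.39 in F and 6.19 ± 0.36 in FL (SD, n = 4), so LF at 6.80 lay near F, and L at 5.93 lay near FL. Igfbp4 was 9.06 in F and 9.09 in FL, beside 8.97 in LF and 8.24 in L, which left L as the low strain. Rtcb was 6.90 in F and 7.06 in FL, near LF at 6.96 and below L at 8.24. Grik2 was 4.98 in F and 5.13 in FL, near L at 4.95, with LF at 3.62 as the low strain. Slc7a12 probe set 7206144 was 10.7 in F and 10.6 in FL, beside 10.3 in LF and 8.2 in L. Krt19 was 7.6 in F and 7.9 in FL, beside 7.9 in LF and 6.7 in L. In both of these L was the low strain. All of these are descriptions of group means, without a test.

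Genes lower in LF at day 10 included Ces1e, a carboxylesterase that splits esters of drugs and lipids. It read (6.64, 5.97, 6.20, 6.29) in LF and (7.58, 7.70, 7.25, 7.61) in L. All LF arrays lay below all L arrays, and the difference was -1.26 ± 0.22 (limma, adjusted p = 0.00083), or 2.40-fold lower. In carrier kidneys the sign was opposite, at 0.54 ± 0.22 (adjusted p = 0.807). Of 43 measured genes of drug and acyl metabolism, Ces1e was the 1 that passed, beside 0.329% of all genes. Akr7a3, an aldo-keto reductase, showed -0.51 ± 0.14 (limma, adjusted p = 0.154).

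Dgkg, a diacylglycerol kinase, read (8.07, 7.59, 7.61, 7.60) in LF and (8.42, 8.32, 8.31, 8.35) in L. The L arrays were tightly grouped, LF replicate 1 lay nearest to them, and the difference was -0.63 ± 0.15 (limma, adjusted p = 0.0381). It missed the threshold in 7 of 8 single-array omissions, all but that of LF replicate 1 (adjusted p of 0.0649 to 0.188). Chrna2, a nicotinic acetylcholine receptor subunit, read (5.26, 5.52, 5.18, 5.68) against (6.58, 6.05, 6.0, 6.28). Its difference of -0.82 ± 0.19 (limma, adjusted p = 0.0421) missed the threshold in 6 omissions, all but those of LF replicate 4 and L replicate 3 (0.0683 to 0.292).

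Probe sets 7216846 and 7138718 were left unnamed here, as was every probe set with no gene symbol or with several. The first read (8.91, 8.67, 8.66, 8.76) in LF and (7.76, 7.89, 8.36, 8.03) in L, a difference of 0.74 ± 0.14 (limma, adjusted p = 0.00249). The second differed by 0.85 ± 0.20 (limma, adjusted p = 0.0343), with overlapping groups, and missed the threshold without LF replicate 1 or 3 or L replicate 1, 2 or 4 (0.106 to 0.292). Over all 28 called probe sets, the groups were apart for all but Mx2, Serpina3n and probe set 7138718. Where groups are apart, all 4 pairs of equal number must share a direction. The pairs also shared it for Mx2, Serpina3n and probe set 7138718. All were picked by these same values, so this is a description. Over all probe sets, LF arrays lay wholly above L arrays in 1.66% and wholly below in 2.22%, and over all genes in 1.71% and 2.39%.

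**Figure D3:**
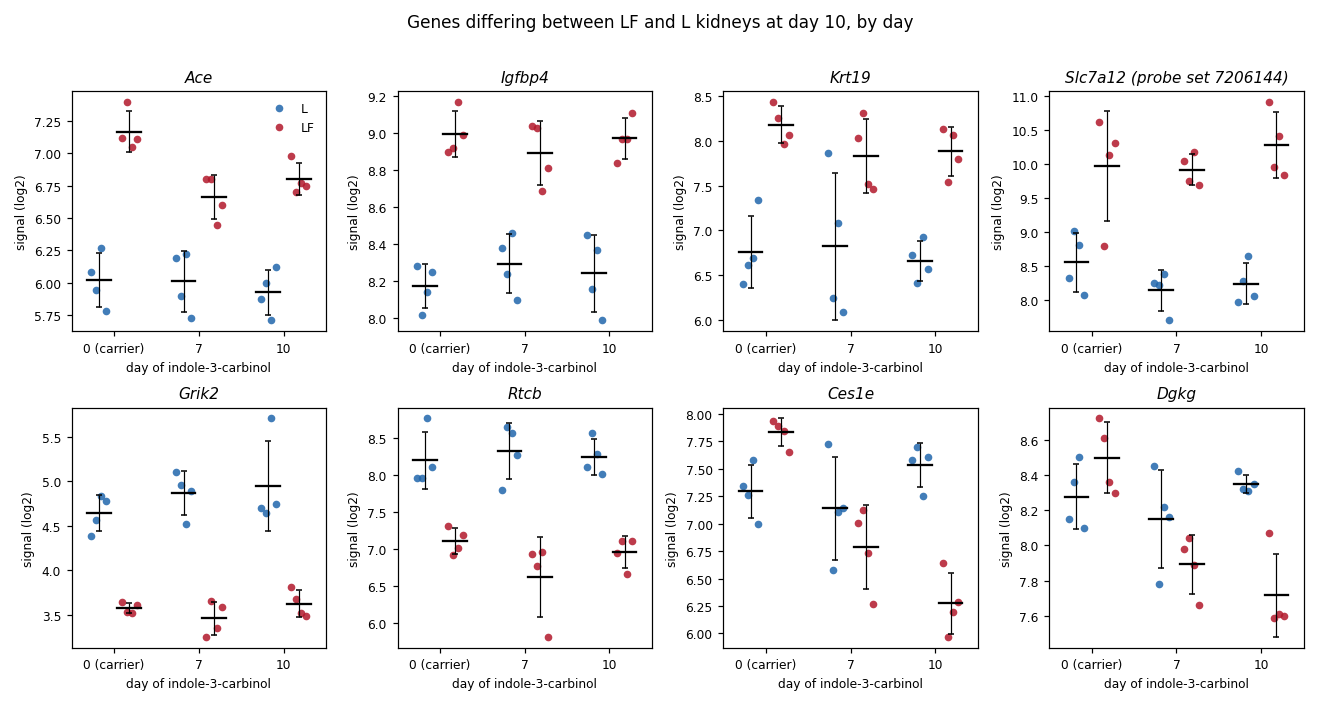
Log2 signal of 8 genes (vertical axes) in L (blue) and LF (red) kidneys against day (horizontal axes), with 1 point per array and bars for the mean and SD of 4. The strains are apart on each day for Ace, Igfbp4, Grik2 and Rtcb, whereas Ces1e and Dgkg are lower in LF at day 10 but not in carrier kidneys, with Ces1e at day 10 at 5.97 to 6.64 in LF and 7.25 to 7.70 in L.

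The gap at day 10 was then tested against the gap between carrier kidneys. Past the threshold, 2 of 8797 probe sets (0.0227%) had gaps that differed. For Lcn2 the carrier gap was -0.22 and the day 10 gap 1.57, a change of 1.78 ± 0.29 (limma, adjusted p = 0.00256). This call ended when the spread was estimated from the 16 arrays of these groups alone (adjusted p = 0.128). For Ces1e it went from 0.54 to -1.26, a change of -1.80 ± 0.31 (limma, adjusted p = 0.00317), and that call held with those arrays alone. The change of the Clu gap was 1.41 ± 0.30 (adjusted p = 0.0562). At an unadjusted p under 0.05, 10 of the 26 injury members had a higher gap at day 10 than in carrier kidneys and 0 a lower one, beside 2.08% and 2.32% of all genes. For Havcr1 it was 2.85 ± 0.77 (limma, adjusted p = 0.369), with a 95% interval of 1.30 to 4.40. For Slfn9 it was 1.54 ± 0.38 (adjusted p = 0.197). These comparisons share the day 10 arrays with the main one.

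**Figure D4:**
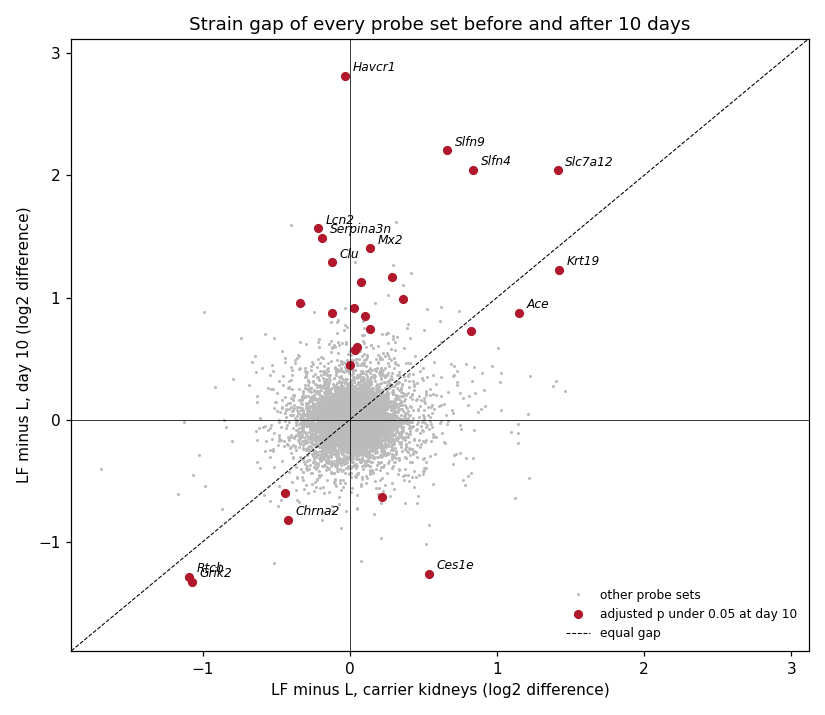
LF minus L at day 10 (vertical axis, log2 difference) against LF minus L in carrier kidneys (horizontal axis, log2 difference) for all 8797 probe sets. The 28 called at day 10 are red, with 14 gene labels, and the dashed line marks equal gaps. Havcr1, Lcn2 and Clu lie near 0 on the horizontal axis, and Ace, Rtcb and Grik2 lie near the line.

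At day 7, 12 probe sets differed between the strains (0.136%), and 8 of these were also called at day 10, which is 66.7% of the day 7 list and 28.6% of the day 10 list. Havcr1 differed by 2.89 at day 7 (adjusted p = 0.00609), Lcn2 by 1.08 (0.00676), Timp1 by 1.11 (0.00315) and Serpina3n by 1.98 (0.0029). All were higher in LF on both days. Between day 7 and day 10 the gap differed at 0 probe sets by limma at the adjusted threshold, and at 309 by an unadjusted p under 0.05 (3.51%). For Havcr1 the change was -0.08, with a 95% interval of -1.63 to 1.48. At an unadjusted p under 0.05, 17 of the 23 interferon list members had a higher gap at day 10 than at day 7, beside 2.1% of all genes, and 2 of the 26 injury members did. Mx2 went from -0.71 to 1.4, a change of 2.11 ± 0.44 (limma, adjusted p = 0.197), and Oas1a from -1.44 to 1.62, a change of 3.06 ± 0.76 (adjusted p = 0.42). Without L replicate 3 of day 10, 6 probe sets passed in this test, and without L replicate 4 of day 7, 1 did.

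Lists of nephron segments and of other cell types were examined because whole kidney RNA was used, in which fewer cells of a type and less RNA per cell cannot be told apart. None of 26 measured proximal tubule genes passed (background 0.329% of genes in either direction), 21 lay below 0, and the median was -0.12. Over all 7589 genes, 3501 lay above 0 and 4062 below. At an unadjusted p under 0.05, 6 were lower, among them Fbp1 (-0.23) and Pck1 (-0.45), enzymes of glucose synthesis, and 1 was higher, beside 2.44% and 2.74% of all genes. The list's summed linear signal was 54212 to 59921 in LF and 59302 to 65046 in L. Of 20 genes of Henle's loop and the distal convoluted tubule, 0 passed and 16 lay below 0. Egf, made in the distal convoluted tubule, showed -0.35 (adjusted p = 0.28) and Calb1, a calcium binding protein of the same segment, -0.69 (0.51).

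Fatty acid oxidation is the main fuel route of the proximal tubule. Of 32 measured genes of a list of fatty acid oxidation and PPAR target genes, 0 passed, beside 0.329% of all genes. In this list 28 lay below 0, beside 4062 of all 7589 genes, and the median was -0.19. At an unadjusted p under 0.05, 6 were lower and 1 higher, beside 2.44% and 2.74% of all genes. Crat, carnitine acetyltransferase, showed -0.35 ± 0.11 (limma, adjusted p = 0.317). Ehhadh and Acadm, enzymes of the oxidation steps, showed -0.39 and -0.27 (adjusted p = 0.57 and 0.65).

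Among 22 measured macrophage and dendritic cell genes, Gpnmb was the 1 that passed (0.329% of all genes did), 17 lay above 0, and the median was 0.15. The list's summed linear signal ranged from 2403 to 2938 in LF and from 2336 to 2723 in L. Cd14, a co-receptor for bacterial lipids, showed 0.42 (adjusted p = 0.46), while Ptprc, the general leukocyte marker, was near equal at 6.59 and 6.54. None of 21 T and natural killer cell genes passed (median -0.04), nor of 11 granulocyte and mast cell genes (median 0.01). Granulocytes also make Lcn2, and the summed signal of that list was 270 to 289 in LF and 268 to 287 in L. The part of such cells in the differences was not tested.

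No target gene of the aryl hydrocarbon receptor was called between the strains at day 10. Of 8 measured, 0 passed, also at an unadjusted p under 0.05, which 5.18% of all genes did. At that share, 0 of so few genes is near the background and says little of the list. Cyp1a1 read (6.33, 5.91, 4.35, 4.67) in LF and (5.30, 5.38, 5.92, 5.0) in L. The groups overlapped, LF replicate 1 being the highest and LF replicates 3 and 4 the lowest of the 8 arrays. The difference was -0.09 ± 0.43 (limma, adjusted p = 1.0), with a 95% interval of -0.96 to 0.79. Mean Cyp1a1 was 4.8 in LF and 3.95 in L in carrier kidneys, and 5.3 and 5.4 at day 10. The change of its gap between these days did not pass the threshold. Cdkn1a, a cell cycle inhibitor induced by p53, showed 0.21 ± 0.29 (adjusted p = 1.0).

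Of 28 measured matrix and fibrosis genes, Timp1 was the 1 that passed (0.329% of all genes did), and the list's median was 0.03. In the lists not described so far, among them complement, histocompatibility, cell cycle, heat shock, sterol synthesis, collecting duct, podocyte and endothelium, no member passed. Of 12 measured endothelium genes, 0 lay above 0 and 11 below. Their median was -0.12, the same as that of the proximal tubule list.

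**Figure D5:**
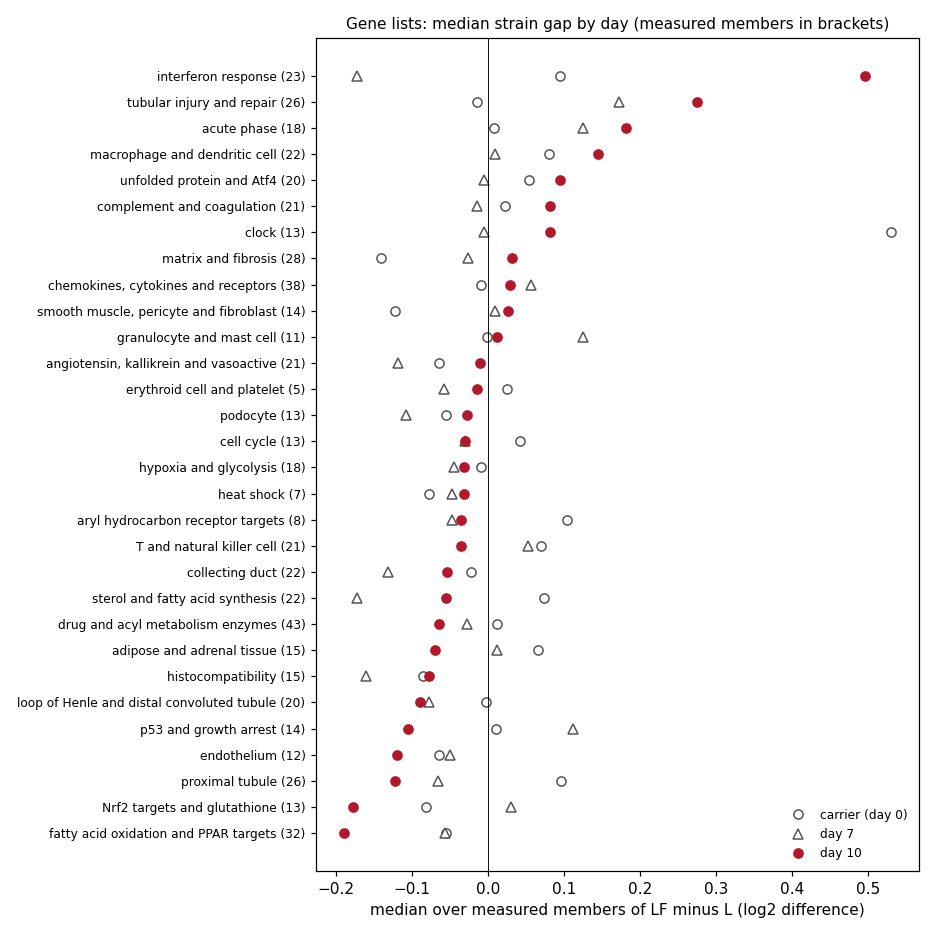
Median difference LF minus L over the measured members of each gene list (horizontal axis, log2 difference), for carrier kidneys (open circles), day 7 (open triangles) and day 10 (red), with the number measured in brackets. The interferon list has its highest median at day 10 (0.50) and the injury list lies at 0.28, while the fatty acid oxidation list is lowest at -0.19.

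The calls differed in how far they rested on single arrays. In 13 of the 28 probe sets the call held when any 1 of the 8 arrays was left out, those of Slc7a12 (both), Slfn9, Lcn2, Grik2, Igfbp4, Slfn4, Clu, Timp1, Ces1e, Rtcb, Ace and probe set 7216846. The count past the threshold was 18 without LF replicate 1, 16 without L replicate 2 and 17 without L replicate 4. When the spread was estimated from the 8 arrays alone, 11 probe sets passed, of which 7 were among the 28. They were Slc7a12 (probe set 7206144), Slfn9, Ces1e, Rtcb, Ace, Fbxo9 and Krt19.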

How the data were processed

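Total kidney RNA was hybridised to whole-transcript arrays. The authors deposited log2 signals, 1 per probe set and array, made with RMA per the submitters' processing notes, which also list limma and give no versions. Which probe sets were kept, and the build behind them, are not given in the sources used here. Replicates are called biological in the series' design. P-values rest on 1 spread per probe set, pooled over all 12 groups. They do not measure the spread within the LF and L arrays of day 10 alone. For Havcr1 the SD was 1.47 in L and 0.82 in LF at day 10, and 0.06 in carrier LF kidneys.

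Of 8797 probe sets, 7603 carried 1 gene symbol. A gene with several was taken at its brightest. A mean for each of the 12 groups was fitted with limma 3.58.1 in R 4.3.3 over 48 arrays (36 residual and 3.69 prior degrees of freedom), 5 contrasts were read, and p-values were adjusted over all probe sets at 0.05. The number of arrays limits the precision. The fit was tested on simulated data with independent normal noise of the same spread in every group. Unequal spreads between groups, as seen here for Havcr1, were not simulated. Members and the 31 gene lists (551 of 882 genes measured) were chosen with earlier results of these data known.

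Named were the 15 largest rises and falls past the threshold, the 8 and 5 largest per direction in the tests against the carrier and day 7 gaps, up to 4 members per list with the smallest p, and Havcr1, Lcn2, Clu, Timp1, Hmox1, Cyp1a1, Ace, Agt, Agtr1a, Serpina3n, Mx1, Mx2, Oas1a and Cdkn1a. Spp1 was on that rule and is not analysed here. Igfbp4, Fbxo9, Itgb4, S100a10, Slc7a12 probe set 7206144, the unnamed probe sets, Slc34a1, Lrp2, Ptprc and the neighbours of called genes were added after the values were seen.

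The 12 arrays of a replicate number share a stem in their names, whose meaning the labels do not give, and no label states a pairing. Alternatives were the replicate number as a block, other scalings, filters, weights, a spread covariate, and leaving out arrays. Names and gene neighbours come from RefSeq (GRCr8).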

Additional observations from a re-analysis of the deposited data

Results flagged for a closer look

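Chance puts about 1 in 20 groups of 4 past the limit used for a single array far from the others. Of 74 groups of 4 day 10 arrays examined, 5 held such an array. Grik2 in L replicate 3 read 5.71, with the other L arrays at 4.64 to 4.75. Fbxo9 in L replicate 3 read 7.90, beside 7.74 to 7.75. Dgkg in LF replicate 1 read 8.07, beside 7.59 to 7.61. Hspb1, a small heat shock protein gene, read 7.90 in L replicate 1, beside 7.42 to 7.45. Its difference between the strains, 0.55 ± 0.13, lay just outside the threshold (limma, adjusted p = 0.0584). Hmox1 in LF replicate 3 read 5.22, beside 5.96 to 6.10. For Grik2 and Fbxo9 the LF and L arrays did not overlap.

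The strain gap differed between day 10 and carrier kidneys, by the test of that difference, for Lcn2 (1.78, limma, adjusted p = 0.00256, and 0.128 with the arrays of these groups alone) and Ces1e (-1.80, limma, adjusted p = 0.00317). For Lcn2, L kidneys went from a mean of 5.85 to 6.27 and LF kidneys from 5.63 to 7.84. For Ces1e, L kidneys went from 7.30 to 7.54 and LF kidneys from 7.83 to 6.28.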

How the results depend on the processing

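Each of the 28 probe sets called at day 10 kept its direction under all 17 alternatives run. At day 10, 28 probe sets became 11 with the 8 arrays alone, 65 after another quantile normalization, 50 with array medians subtracted, 51 with array weights and 87 with the array spread as a covariate. These other scalings shift the median of all differences from -0.01 to -0.0065 and -0.0025. The share with LF higher, 22 of 28, was 42 of 65 after the quantile step, 34 of 50 with medians subtracted and 61 of 87 with the covariate. The corresponding counts between carrier kidneys, 17 in the fit used, were 8, 44, 36, 36 and 58. At day 7 they were 4, 33, 27, 18 and 39 in place of 12. For the day 10 gap minus the carrier gap, 2 became 3, 9, 9, 9 and 19, and 5 without the dimmest 25% of probe sets. With the 16 arrays of that contrast alone, 1 of the 2 was among the 3, Ces1e, and the Lcn2 change of 1.78 no longer passed (adjusted p = 0.128). For day 10 minus day 7 the count stayed 0 in all of these. Leaving out 1 array at a time gave 16 to 32 at day 10, 14 to 19 in carrier kidneys, 3 (without LF replicate 1) to 22 (without LF replicate 4) at day 7, 2 to 4 for the gap to carrier, with 4 without LF replicate 3 or L replicate 4 of day 10, and 0 to 6 for the gap to day 7. Removing the 5 arrays of lowest spread, chosen after seeing the data and none of them among the 8, gave 33 at day 10. The cause of these shifts was not tested.

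The replicate numbers are not shown to pair the samples. Deviations from the group means correlated between LF and L at day 10 by 0.068, 0.087, -0.096 and 0.096 for numbers 1 to 4, each below the highest correlation with another number (0.298, 0.105, 0.126 and 0.114). With the number as a replicate block, 42 probe sets passed at day 10 (all 28 and 14 more), 30 between carrier kidneys, 15 at day 7, 8 for the gap to carrier and 0 for the gap to day 7. Among genes named in the report, Mx1 (adjusted p = 0.0415), Crat (0.0211) and Akr7a3 (0.0312) passed with it at day 10, and no other day 10 call changed. For the gap to carrier, only Lcn2, Clu, Ces1e and Havcr1 were followed, and the change of the Clu gap passed (0.0417). Calls in carrier kidneys and at day 7 were not followed gene by gene.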

Other observations

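Over 13 measured members of the clock list the median LF minus L difference was 0.53 in carrier kidneys, -0.01 at day 7 and 0.08 at day 10. For the change of the gap from carrier kidneys to day 10, 0 members passed the adjusted threshold (limma). At an unadjusted p under 0.05, 6 went lower and 2 higher, beside 2.32% and 2.08% of all genes. The higher ones were Bmal1 (1.29) and Nfil3 (1.17). Dbp, a transcription factor driven by the clock, read 9.82 to 10.18 in carrier LF kidneys and 8.36 to 8.81 in carrier L kidneys, a gap of 1.41 (limma, adjusted p = 5.34e-05). At day 10 its gap was 0.32, and the change of the gap was -1.09 (adjusted p = 0.344). For Cry2, a repressor of the clock, the carrier gap of 0.64 (limma, adjusted p = 0.00359) gave way to -0.18 at day 10, a change of -0.82 (adjusted p = 0.0562). The time of day of tissue collection is not given in the labels.

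Hmox1, which breaks down heme and answers to oxidative stress, differed by 4.08 between LF and L at day 7 (limma, adjusted p = 0.022), with LF arrays at (10.19, 9.14, 10.57, 5.87) and L arrays at 4.40 to 5.17. At day 10 it read (6.10, 5.97, 5.22, 5.96) in LF and (7.41, 8.64, 5.11, 5.10) in L. The day 10 difference was -0.75 ± 0.86 (adjusted p = 1.0), and the change from day 7 was -4.83 ± 1.22 (limma, unadjusted p = 0.000294, adjusted p = 0.42).

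Of the 25 named genes called at day 10, 7 lie on chromosome 10 of GRCr8, where 636 genes were measured (1.1%, beside 0.329% of all genes). They are Havcr1, Slfn9, Slfn4, Krt19, Ace, Igfbp4 and Itgb4. Chromosome 11 had a higher share, 3 of 201 genes (1.49%), and chromosome 15 had 2 of 215 (0.93%). These counts were looked at after the values were seen and were not tested.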
